A study of Mus musculus with 6 samples.

Results

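Of the 10 genes described here, 9 encode surfactant proteins or proteins that process, transport or package surfactant or its components in alveolar type 2 (AT2) cells, and Etv5 encodes a transcription factor of these cells. They were taken by symbol (Sftpc, Sftpb, Sftpa1, Sftpd, Napsa, Slc34a2, Abca3, Lamp3, Lpcat1 and Etv5) out of 56884 genes listed in each library, and all 10 had UMIs (unique molecular identifiers, 1 per captured transcript) in each of the 4 lung libraries. The libraries are single-cell transcriptomes (BD Rhapsody, whole transcriptome, tags from the 3' end) of P21 mouse lungs, with 1 library for each genotype. Controls were Bdnf lox/lox and Hgf lox/lox, and the matched mutants were Bdnf iPCKO and Hgf iPCKO. Each library holds the cells of 2 pooled littermates after depletion of CD45+ cells and erythrocytes, with 40000 cells prepared per genotype. The study asked through these pairs what pericyte-derived BDNF and HGF do in lung growth.

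All mice, controls included, received 50 µg tamoxifen daily from P1 to P3 and carried floxed alleles of Bdnf or Hgf. The iPCKO mice also carried the Pdgfrb(BAC)-CreERT2 transgene, which drives recombination in PDGFRβ+ cells such as pericytes and other mural cells, whereas the controls lacked it. AT2 cells are therefore not the cells in which the alleles were deleted, and an effect of the transgene cannot be told apart from that of the deletion. Sex is not given per library. With 1 library per genotype no difference had a replicate check and no p-value was computed, so the 95% intervals below cover counting error only.

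Surfactant is a film of phospholipid and protein that lowers surface tension at the air-liquid interface of the alveolus. AT2 cells assemble it in lamellar bodies, lysosome-related organelles into which lipid is pumped and in which the hydrophobic surfactant proteins mature, and they release it by exocytosis and take much of it back. Production rises around birth and continues while alveoli form in the postnatal weeks.

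The members are given by role. Sftpc (ENSMUSG00000022097.5, chromosome 14, 70758389 to 70761524, minus strand, of GRCm39) and Sftpb (ENSMUSG00000056370.18, chromosome 6, 72281594 to 72291354, plus strand) encode the small hydrophobic proteins SP-C and SP-B that spread the lipid film. Sftpa1 (ENSMUSG00000021789.15, chromosome 14, 40853739 to 40858551, plus strand) and Sftpd (ENSMUSG00000021795.11, chromosome 14, 40894170 to 40907128, minus strand) encode the collectins SP-A and SP-D, which bind microbial sugars. The 2 collectin genes lie 35.6 kb apart on chromosome 14, while Sftpc lies 29851 kb from Sftpd. Napsa (ENSMUSG00000002204.10, chromosome 7, 44221804 to 44236295, plus strand) encodes an aspartic protease that cleaves proSP-B. Lpcat1 (ENSMUSG00000021608.16, chromosome 13, 73615316 to 73664580, plus strand) encodes an acyltransferase that makes saturated phosphatidylcholine. Abca3 (ENSMUSG00000024130.17, chromosome 17, 24570895 to 24629842, plus strand) encodes the lipid pump of the lamellar body membrane, Lamp3 (ENSMUSG00000041247.9, chromosome 16, 19472128 to 19525125, minus strand) a membrane glycoprotein of the same organelle, and Slc34a2 (ENSMUSG00000029188.15, chromosome 5, 53195423 to 53229006, plus strand) a sodium-phosphate cotransporter. Etv5 (ENSMUSG00000013089.16, chromosome 16, 22200052 to 22259662, minus strand) encodes an ETS transcription factor downstream of FGF and RAS signalling in AT2 cells. No gene on the same strand overlaps a member. On the opposite strand Mbl1, a mannose-binding lectin gene, overlaps Sftpd and had 6.82 to 11.04 CPM in AT2-like cells. Levels are CPM, the UMIs of a gene divided by all UMIs of the same cells and scaled to the usual common total.

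RefSeq start sites were at hand for 7 of the 10 members, Sftpb, Sftpa1, Slc34a2, Abca3, Lamp3, Lpcat1 and Etv5. The windows of Sftpb, Sftpa1, Lamp3 and Abca3 are printed here because Lamp3 and Abca3 are the members with the largest ratios in the Hgf pair and Sftpb and Sftpa1 are among those that moved little. Each runs 5' to 3' on the strand of the gene from 250 bases upstream of the start site to 50 bases downstream (GRCm38.p6). The capitals mark 3 motifs, each searched on both strands. The first is CTCAAG, the core bound by NKX2-1. The next is TGTTTNC, a core bound by forkhead factors. The last is TATAAA, the TATA box.
Sftpb (chr6:72304360-72304659, plus strand): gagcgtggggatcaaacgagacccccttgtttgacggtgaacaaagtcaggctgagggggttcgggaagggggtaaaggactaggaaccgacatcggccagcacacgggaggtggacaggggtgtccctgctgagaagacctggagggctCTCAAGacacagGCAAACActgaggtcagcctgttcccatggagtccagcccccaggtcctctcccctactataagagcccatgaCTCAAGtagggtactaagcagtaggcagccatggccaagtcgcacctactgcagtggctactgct
Sftpa1 (chr14:41131538-41131837, plus strand): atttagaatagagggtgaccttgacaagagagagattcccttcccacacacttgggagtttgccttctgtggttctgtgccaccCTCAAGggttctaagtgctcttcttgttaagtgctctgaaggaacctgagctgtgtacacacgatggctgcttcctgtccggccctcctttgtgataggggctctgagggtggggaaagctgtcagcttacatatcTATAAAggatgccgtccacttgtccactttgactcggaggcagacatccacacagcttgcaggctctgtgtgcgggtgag
Lamp3 (chr16:19706316-19706615, minus strand): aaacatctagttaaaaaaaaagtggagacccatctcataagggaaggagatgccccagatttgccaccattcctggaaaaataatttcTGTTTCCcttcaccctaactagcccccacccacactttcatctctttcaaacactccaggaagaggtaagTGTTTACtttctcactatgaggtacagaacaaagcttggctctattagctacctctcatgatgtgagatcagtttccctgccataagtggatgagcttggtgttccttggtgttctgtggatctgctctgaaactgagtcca
Abca3 (chr17:24351773-24352072, plus strand): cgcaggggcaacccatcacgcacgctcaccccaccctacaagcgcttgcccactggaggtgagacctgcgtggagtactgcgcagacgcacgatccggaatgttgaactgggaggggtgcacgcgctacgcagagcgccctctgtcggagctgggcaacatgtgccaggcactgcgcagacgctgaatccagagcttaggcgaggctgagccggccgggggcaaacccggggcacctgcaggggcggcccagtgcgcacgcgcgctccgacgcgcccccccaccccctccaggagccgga

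CTCAAG stood in the Sftpb window 2 times and in the Sftpa1 window 1 time, and 15.9% of all 32851 RefSeq windows held it. TGTTTNC occurred 1 time in Sftpb, 2 times in Lamp3 and 1 time in 1 of the 2 Etv5 windows (20.5% of all windows). TATAAA was found in Sftpa1 (13.6% of all windows), 30 bases before its start site. None of these letters were found in the Abca3, Slc34a2 and Lpcat1 windows. The windows also differed in base composition. Lamp3 had 0 CpG dinucleotides, Sftpa1 5 and Sftpb 8, against 25 in Lpcat1, 29 in Abca3, 30 in Slc34a2 and 37 and 19 in the pair of Etv5 windows, with a median of 7 over all windows. These matches are descriptions of sequence and not of binding.

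A barcode counted as a cell from 1500 UMIs in either Bdnf library and from 700 UMIs in either Hgf library, which gave 16720, 23836, 14013 and 15689 cells (Bdnf control, Bdnf iPCKO, Hgf control and Hgf iPCKO, the order of all series below). The median depth per cell was 7165, 5062, 3975 and 2850 UMIs, so each mutant library was shallower than its control. AT2-like cells were those with at least 20 UMIs per 10000 from 10 AT2 markers (Cxcl15, Hc, Chil1, S100g, Egfl6, Lgi3, Dram1, Acoxl, Muc1 and Ppp1r14c) and no other class of markers past its limit. No member was among these markers. The gate gave 5578, 6240, 5259 and 3585 AT2-like cells with median depths of 8466, 5880, 4729 and 3579 UMIs. Cells past 2 gates of different lineages made up 13.1, 18.9, 11.8 and 17.4% of cells and were kept apart. Matched by position in the barcode list, the libraries shared 238 to 431 cell barcodes per pair, against 241 to 437 that independent draws would give. This count cannot show sharing of barcodes if the lists differ between libraries. The study's methods name different lists for standard and enhanced beads without assigning them to libraries.

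Most members were captured almost throughout the AT2-like cells. Together they gave 10.6, 10.7, 11.4 and 9.85% of all UMIs of these cells. An Sftpc UMI was present in 100, 100, 100 and 99.97% of AT2-like cells, and an Etv5 UMI, the lowest share of any member in both Bdnf libraries, in 94.6, 86.7, 96.5 and 89.4%. Abca3 had the lowest share in both Hgf libraries, with 98.7, 95.9, 93.2 and 78.0%. Free RNA was measured in barcodes with 20 to 200 UMIs, taken to hold no cell. The levels of the 10 members in AT2-like cells were 1.42 to 6.87, 1.59 to 7.87, 1.26 to 5.19 and 2.09 to 9.64 times those of free RNA, lowest for Abca3 and highest for Sftpc in each library. The AT2 label of the gate, which rests on other genes, thus went together with the surfactant genes in all 4 libraries.

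The RNA levels of the hydrophobic surfactant protein genes differed by less than 1.5-fold between mutant and control. Sftpc had 65130 CPM in the Bdnf control and 69607 CPM in the Bdnf iPCKO, and 65788 CPM in the Hgf control against 55242 CPM in the Hgf iPCKO lung. The log2 ratios of iPCKO over control were 0.10 (0.09 to 0.10) and -0.25 (-0.26 to -0.25), and the Hgf iPCKO library was the lowest of the 4. The direction of the Bdnf ratio turned (-0.014) when cells past a second gate were kept, and the pairs then went the same way. Sftpb had 6949, 6321, 8822 and 7683 CPM, with ratios of -0.14 (-0.14 to -0.13) in the Bdnf and -0.20 (-0.21 to -0.19) in the Hgf pair. Both Hgf libraries were above both Bdnf libraries for Sftpb, and also for Sftpa1, Sftpd, Napsa, Lpcat1 and Etv5. The share of all genes with this order was not counted.

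The collectin genes showed the same limited range. Sftpa1 had 17083, 15782, 20400 and 18460 CPM, with ratios of -0.11 (-0.12 to -0.11) and -0.14 (-0.15 to -0.14). Sftpd had 3290, 3103, 3874 and 4152 CPM, with ratios of -0.08 (-0.10 to -0.07) and 0.10 (0.08 to 0.11). The Hgf iPCKO library thus had the highest Sftpd level of the 4. Counting error is small at these depths, and an interval that leaves out 0 says nothing on the spread between litters.

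**Figure D1:**
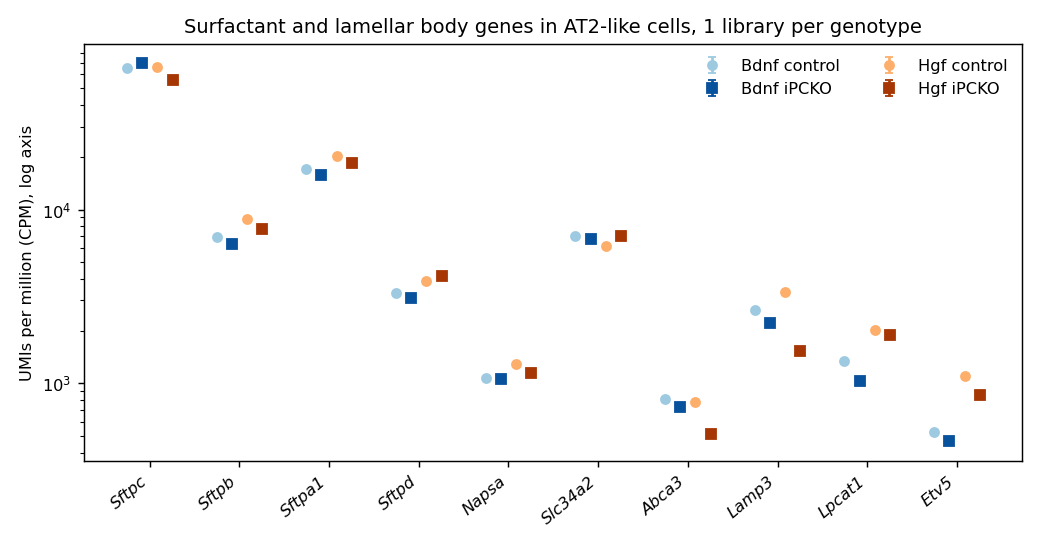
Level of each of the 10 members in AT2-like cells in CPM (log axis), with 1 point per library and exact Poisson 95% intervals that are mostly smaller than the points. Lamp3 and Abca3 have their lowest point in the Hgf iPCKO library (1528 and 508 CPM). Sftpb, Sftpa1, Sftpd, Napsa, Lpcat1 and Etv5 are higher in both Hgf libraries than in both Bdnf libraries.

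Among the genes of protein and lipid processing, the protease gene Napsa had 1077, 1062, 1288 and 1146 CPM and ratios of -0.02 (-0.04 to -0.0022) and -0.17 (-0.20 to -0.14). The Bdnf ratio turned to 0.014 with CPM computed without mitochondrial genes and members. Lpcat1 had 1343, 1038, 2030 and 1886 CPM. Its ratio of -0.37 (-0.39 to -0.35) was the lowest of the 10 in the Bdnf pair, and it was -0.11 (-0.13 to -0.08) in the Hgf pair. Lpcat1 was higher in both Hgf than in both Bdnf libraries.

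The lamellar body genes Lamp3 and Abca3 carried the largest ratios of the 10 members in the Hgf pair and passed 1.5-fold there, which no member did in the Bdnf pair. Lamp3 had 2642 CPM in the Bdnf control and 2232 in the Bdnf iPCKO lung (-0.24, -0.26 to -0.23). The Bdnf ratio was -0.01 when matrix entries that were not whole numbers were left out. These entries held 25.4% of the Lamp3 UMIs of AT2-like cells in the Bdnf control and 11.9% in the Bdnf iPCKO library. The setting thus removed unequal parts, while the fractions themselves were 0.791 and 0.550% of these UMIs. Lamp3 had 3365 CPM in the Hgf control and 1528 CPM in the Hgf iPCKO lung, a ratio of -1.14 (-1.16 to -1.12) or 2.20-fold lower. Abca3 had 811 and 730 CPM in the Bdnf libraries (-0.15, -0.18 to -0.13) and 777 and 508 CPM in the Hgf libraries (-0.61, -0.65 to -0.57), which is 1.53-fold lower. With free RNA subtracted the Hgf ratio of Abca3 was -0.56, short of 1.5-fold. For both genes the Hgf iPCKO library was below the other 3, and the difference between the pairs was not tested. By immunostaining the study reported a lower percentage of LAMP3+ cells in Hgf iPCKO lungs, which counts cells by protein. It also names Lamp3, Met and an Abca gene from these same libraries, so the lower levels here are not independent evidence. Slc34a2, another gene of a membrane protein, did not share this. It had 7068, 6765, 6194 and 7003 CPM, with ratios of -0.06 (-0.07 to -0.06) and 0.18 (0.17 to 0.19).

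Etv5 had 527, 465, 1109 and 857 CPM, with ratios of -0.18 (-0.21 to -0.15) in the Bdnf pair and -0.37 (-0.40 to -0.34) in the Hgf pair. Both Hgf libraries were again above both Bdnf libraries.

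Over the 10 members, the median ratio was -0.13 in the Bdnf and -0.18 in the Hgf pair. The Bdnf value was -0.25 when cells past the AT2 gate and a second gate were kept. The medians over all genes were 0.02 over 20286 and -0.01 over 16431 genes with at least 20 UMIs in the libraries of the pair together. No member was 1.5-fold lower or higher in the Bdnf pair, where 4.84% of all genes were lower and 11.6% higher by that much. In the Hgf pair 2 of the 10 were 1.5-fold lower, with 17.2% of all genes lower and 15.5% higher, and no member was higher. Many of those genes have few UMIs. Among genes of at least 100 CPM, 1.39% were lower and 1.52% higher in the Bdnf pair, and 11.8% were lower and 15.9% higher in the Hgf pair. The count of 2 in 10 is near this background, so the members as a group did not stand apart from other genes of AT2-like cells by it.

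The control libraries give a measure of how far 2 pools of 2 mice can differ without the deletion. Line, litter and depth differ between them and cannot be told apart. The study's methods also name standard and enhanced capture beads without saying which library had which. In AT2-like cells of the Hgf control over the Bdnf control, Etv5 differed by 1.07 (1.05 to 1.10) and Lpcat1 by 0.60 (0.58 to 0.61) on the log2 scale, both past 1.5-fold. The other 8 members lay between -0.19 (Slc34a2) and 0.35 (Lamp3), with Abca3 at -0.06 (-0.09 to -0.04). Of all 19217 genes 30.7% differed by 1.5-fold or more in either direction. This yardstick is 1 pair of libraries. Lamp3 and Abca3 in the Hgf pair, Abca3 in the Bdnf pair and Sftpc in both pairs had larger ratios than between the controls, and all other ratios of the members were smaller in size than between the controls.

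The markers that define the gate moved more than the members. In the Hgf pair 5 of the 10 gate markers were 1.5-fold lower, with a median ratio of -0.84, and in the Bdnf pair 1 of the 10 was, with a median of -0.29. Among these 5, Acoxl was below its free RNA level in AT2-like cells of 3 libraries (0.289, 0.480 and 0.599 times, against 2.35 times in the Hgf iPCKO library), and the part of free RNA in its ratio was not tested. Cxcl15, an AT2 chemokine, went from 18211 to 5185 CPM in the Hgf libraries (-1.81, -1.82 to -1.80) and from 15712 to 10010 CPM in the Bdnf libraries (-0.65, -0.66 to -0.64). Hc, which encodes complement component C5, went from 1948 to 622 CPM in the Hgf pair (-1.65, -1.68 to -1.61). Lyz2, an AT2 and macrophage lysozyme gene that is no gate marker, went from 34279 to 15902 CPM (-1.11, -1.12 to -1.10), close to the ratio of Lamp3. S100g, Lgi3 and Dram1, also gate markers, had ratios of -0.23, -0.23 and -0.28 there, beside -0.25 for Sftpc. The gate asks for these markers, so it can leave out AT2 cells with the least of them. With Sftpc, Sftpb, Sftpa1, Slc34a2 and Napsa added to the markers the Hgf gate kept 5277 and 3631 cells, and Lamp3 and Abca3 remained past 1.5-fold.

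**Figure D2:**
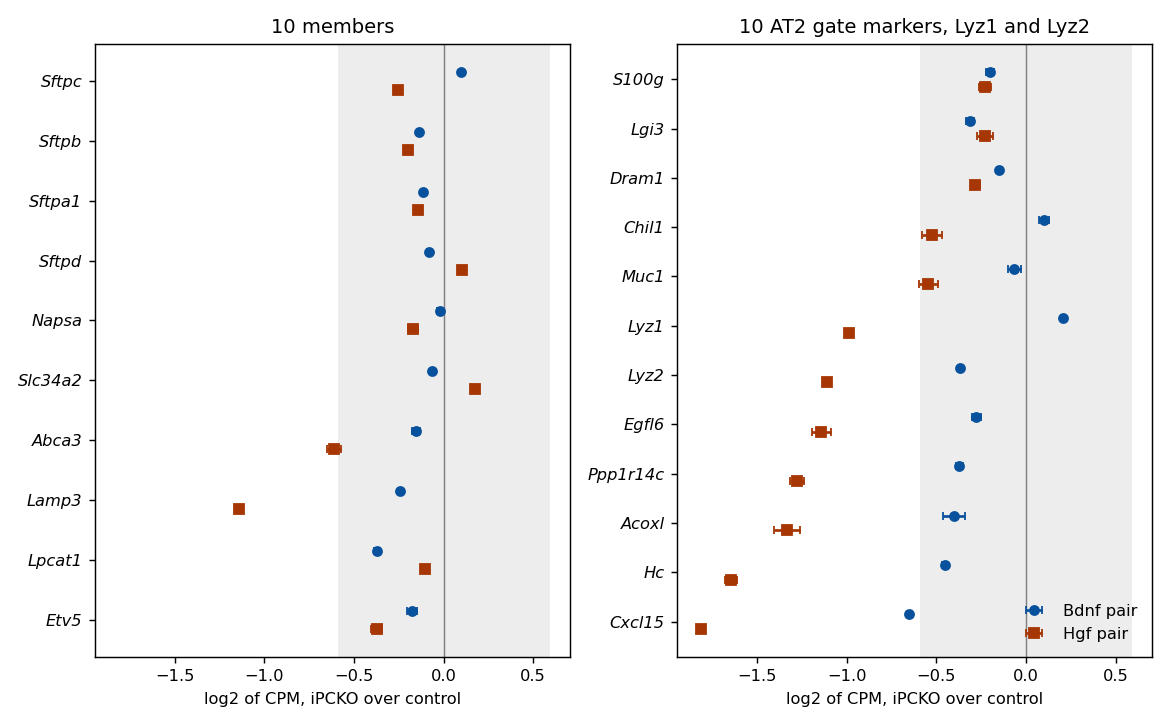
Log2 ratio of CPM in AT2-like cells, iPCKO over control, for the members (left) and for the gate markers with Lyz1 and Lyz2 (right). Points are single pairs of libraries, bars are 95% counting intervals, and the grey band spans less than 1.5-fold in either direction. Of the members only Lamp3 and Abca3 leave the band, in the Hgf pair, while Cxcl15, Hc, Acoxl, Ppp1r14c, Egfl6, Lyz2 and Lyz1 do so on the right in the Hgf pair, and Cxcl15 also in the Bdnf pair.

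Depth differed within the pairs, so AT2-like cells were also compared within bins of equal depth. In the Hgf pair Lamp3 had ratios of -1.10, -1.10 and -1.05 and Abca3 of -0.51, -0.61 and -0.61 in cells with 700 to 2000, 2000 to 4000 and 4000 to 8000 UMIs. In the Bdnf bins with at least 100 cells per library the median of the members went from -0.04 at 2000 to 4000 UMIs over -0.11 to -0.17 at 8000 to 16000 UMIs. Cells were also thinned to 2412 UMIs, the 10th percentile of AT2-like cells in the shallower Hgf library. This left out 208 control and 374 iPCKO AT2-like cells below that depth. An Abca3 UMI was then found in 81.0% of control and 67.5% of Hgf iPCKO AT2-like cells (unthinned 93.2 and 78.0%), at 1.90 and 1.22 UMIs per cell. For Lamp3 the thinned shares were 99.8 and 94.9% at 8.16 and 3.69 UMIs per cell (unthinned 99.7 and 96.5%). In endothelial-like cells, which are not a known source of Lamp3, the thinned shares of cells with a Lamp3 UMI were 7.93 and 2.41% (unthinned 8.51 and 3.03% at median depths of 2129 and 1887 UMIs). The thinned endothelial shares describe the deeper cells, since 2722 of 4676 and 4067 of 6101 were left out.

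Lyz1, which encodes a second lysozyme, split the AT2-like cells without splitting the members. After thinning to 3698 UMIs, 20.2 and 24.8% of AT2-like cells of the Bdnf libraries had at least 5 Lyz1 UMIs, and after thinning to 2412 UMIs 14.8 and 11.7% of those of the Hgf libraries did, so these shares compare only within a pair. Between these cells and those without a Lyz1 UMI no member differed by more than 0.12 on the log2 scale in any library, the largest value being that of Sftpd in the Hgf iPCKO lung. From cell to cell the members varied to unequal degrees. In the Hgf control the 10th and 90th percentiles over AT2-like cells were 54203 and 79132 CPM for Sftpc, 1756 and 6369 CPM for Sftpd and 1816 and 4874 CPM for Lamp3, and they include the counting error of single cells. The Hgf iPCKO values for Lamp3 were 464 and 2659 CPM with a median of 1396, so the median cell lay below the 10th percentile of the control. Sftpa1 and Sftpd, the neighbours on chromosome 14, varied together within each library, with Spearman correlations over thinned cells of 0.44 (5411 cells), 0.43 (5583), 0.34 (5051) and 0.30 (3211). The highest correlation of any other pair of members was 0.25, that of Sftpc and Sftpb in the Bdnf control. Such cells share library and depth, the depth differs between the pairs, and the values are descriptions within each pair.

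The wider pathway was described in lists around the members. A list gene was counted when it passed 1.5-fold with an interval that left out 0. Over all genes, without that condition on the interval, 4.84% were lower and 11.6% higher in the Bdnf pair and 17.2% lower and 15.5% higher in the Hgf pair, so the counts of the lists in the Hgf pair are to be read against a high background. Of 24 genes of lipid synthesis, 3 were 1.5-fold lower and 0 higher in the Bdnf pair, and of 23 with enough UMIs 5 were lower and 1 higher in the Hgf pair. Scd1, the stearoyl-CoA desaturase that makes monounsaturated fatty acids, went from 5758 to 3469 CPM (-0.73, -0.74 to -0.72) in the Bdnf and from 15590 to 6957 CPM (-1.16, -1.18 to -1.15) in the Hgf libraries. Elovl1, a fatty acid elongase, had ratios of -0.95 and -1.78. Insig1, a sterol-regulated brake on SREBP processing, was lower in the Bdnf pair (-0.90), and Acly (-0.87), Acsl4 (-0.83) and Acaca (-0.63), which supply or activate fatty acids, were lower in the Hgf pair. Lpin2, a phosphatidate phosphatase, was higher there (0.92). Fasn, the fatty acid synthase, did not pass 1.5-fold in either pair (-0.30 and -0.52). The list medians were -0.15 and -0.03.

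Of 24 genes of lipid transport and lysosome or lamellar body trafficking, none passed 1.5-fold in the Bdnf pair, and 4 were lower and 2 higher in the Hgf pair. S100a10, the partner of annexin A2, went from 65.6 to 17.1 CPM (-1.94), Vps33b, a subunit of a vesicle tethering complex, had -0.91, Hps1, of a complex that builds lysosome-related organelles, -0.77, and Rab27a, a secretory granule GTPase, -0.70. Anxa7 (0.82), an annexin, and Vamp8 (0.67), a SNARE of exocytosis, were higher. Hps1 and Vps33b had under 24 CPM in every library. Of 9 measured genes of proteolysis and recycling, none was lower, and Prdx6, an antioxidant enzyme with phospholipase activity (1.09), Lgmn, a lysosomal protease (0.76), and Ctsh, a cathepsin that trims proSP-B (0.72), were higher in the Hgf pair. Ctsh had 1096, 939, 1045 and 1717 CPM, highest in the Hgf iPCKO library, whereas Napsa was not.

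Of 15 transcription factors of the alveolar epithelium, Nkx2-1, the lineage factor of the lung, had ratios of 0.03 and 0.17, Foxa2 of -0.24 and -0.26 and Cebpa of -0.05 and 0.48, none past 1.5-fold. These 3 factors, like Fasn, are named beside the rule for list genes and were chosen after their values were seen. Cebpd, a CCAAT/enhancer-binding protein induced by glucocorticoids, was higher in both pairs (0.80 and 0.60), Sox9, a factor of distal tip progenitors, went from 1.44 to 6.56 CPM in the Bdnf pair (2.19), and Id2 was lower in the Hgf pair (-0.59). Among 11 growth factor receptors and targets, Dusp6, a feedback phosphatase of ERK signalling, went from 99.49 to 44.02 CPM in the Hgf pair (-1.18), and Met, the HGF receptor, had -0.60. Met was at 1.03 times free RNA in AT2-like cells of the Hgf control and at 2.21 times in those of the Hgf iPCKO library. The part of free RNA in its ratio was not tested. Igf1r, the IGF1 receptor, was higher in both pairs (0.93 and 1.44), Spry4 in the Bdnf pair (1.12) and Erbb3 in the Hgf pair (0.95). Of 10 AT1 genes outside the AT1 gate, Cldn18, a tight junction gene that AT2 cells also express, went from 1091 to 507 CPM (-1.11) in the Hgf pair, with Pdpn at -0.75 and Krt18, a keratin, at 0.76. Igfbp2 was higher in the Bdnf pair (0.60, 0.22 to 0.98), from 2.21 to 3.36 CPM, and had -0.72 (-1.53 to 0.02) in the Hgf pair from 64 and 20 UMIs, an interval that includes 0.

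**Figure D3:**
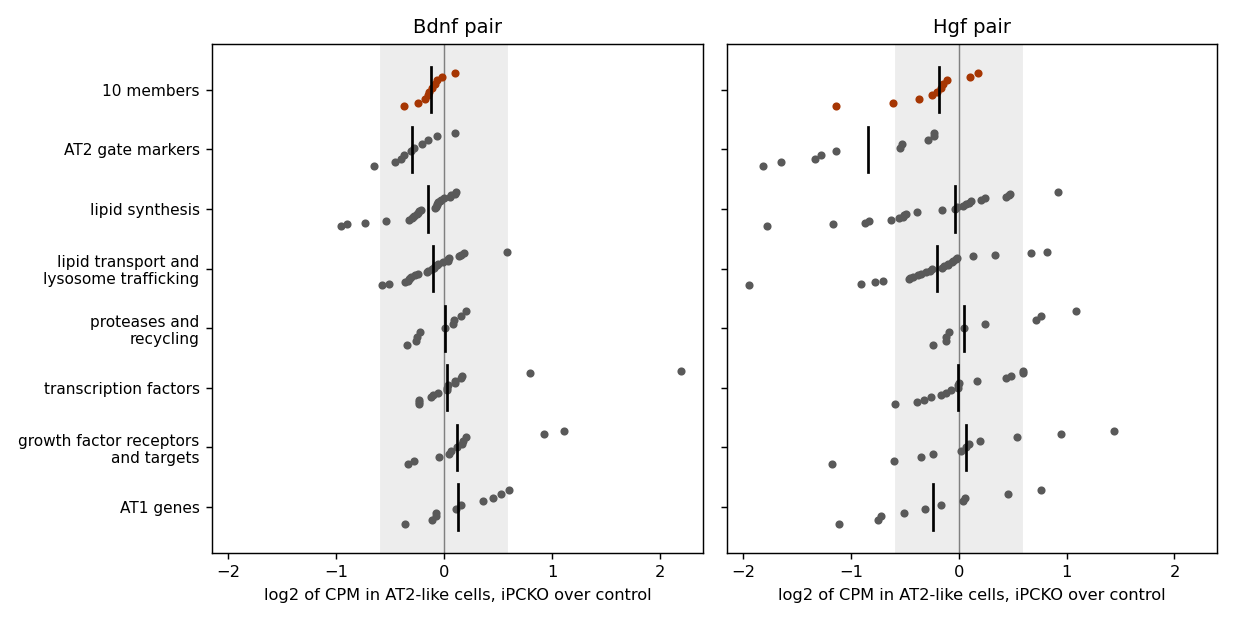
Log2 ratio of CPM in AT2-like cells, iPCKO over control, for the members, the gate markers and the genes of 6 lists, with 1 point per gene, a bar at the median and a grey band of less than 1.5-fold. The gate markers of the Hgf pair have the lowest median (-0.84), and the medians of the members are -0.13 and -0.18.

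Outside AT2-like cells, most members were found at a small fraction of their free RNA level. The medians over the members were 0.0378, 0.0871, 0.0377 and 0.109 of the free RNA level in AT1-like cells, and 0.0508, 0.0813, 0.0423 and 0.0741 in endothelial-like cells. Some members stood well above these medians, and in AT1-like cells of the Hgf iPCKO library the values ranged from 0.0638 (Slc34a2) to 0.597 (Lpcat1). In club-like cells, secretory cells of the airway with 224, 422, 172 and 344 cells, Sftpd had 1405, 1342, 1742 and 1834 CPM, which is 2.54, 2.74, 1.96 and 2.85 times free RNA. Sftpb had 1783, 1511, 2175 and 2095 CPM (0.908 to 1.47 times) and Sftpa1 2984, 2386, 3678 and 2806 CPM (0.850 to 1.28 times). Sftpc was at 0.0323 to 0.215 times free RNA in the same cells, and Napsa, Lamp3, Slc34a2 and Etv5 were at 0.0410 to 0.273 times. The part of free RNA and of cells joined in 1 barcode in these levels was not tested.

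Abca3 was at 0.574, 0.579, 0.411 and 0.517 times free RNA in club-like cells, and its level went from 254 to 126 CPM in the Hgf pair, a ratio of -1.01 (-1.24 to -0.78). Club-like Sftpd was slightly higher there (0.07, 0.0017 to 0.15), and Etv5 (1.15, 0.56 to 1.77), Napsa (1.06, 0.47 to 1.69) and Sftpc (0.60, 0.50 to 0.69) were higher by 1.5-fold or more. The median over the members was 0.0096. The club-like class differed in this pair, with median depths of 9968 and 6540 UMIs. Of its gate markers Scgb3a1 went from 5751 to 278 CPM and Scgb1a1 from 62213 to 84255 CPM. An Sftpc UMI was found in 69.8% of control and 53.8% of iPCKO club-like cells, or 35.7 and 30.9% after thinning (140 and 223 cells). The thinned means were 2.34 and 3.77 UMIs, so a smaller share of cells with more UMIs gave the higher sum. In AT1-like cells Sftpc had more CPM in each library (375, 813, 421 and 630.5) than Lpcat1 (173, 174, 164 and 234). Relative to free RNA, Lpcat1 stood above the other members there, at 0.324, 0.466, 0.231 and 0.597 times. Abca3 followed in AT1-like cells of the first 3 libraries and led in ciliated-like cells (0.183, 0.207, 0.126 and 0.301 times). In the few immune cells left after depletion (50, 27, 81 and 82), Napsa had 72.3 (47.7 to 105), 60.6 (30.2 to 108), 108 (79.4 to 143) and 132 (106 to 163) CPM, from 27, 11, 48 and 87 UMIs. Lamp3 had 0 UMIs in the Hgf iPCKO immune cells. Etv5 in mural-like cells was at 0.381 times free RNA in the Hgf iPCKO library, from 31 UMIs.

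**Figure D4:**
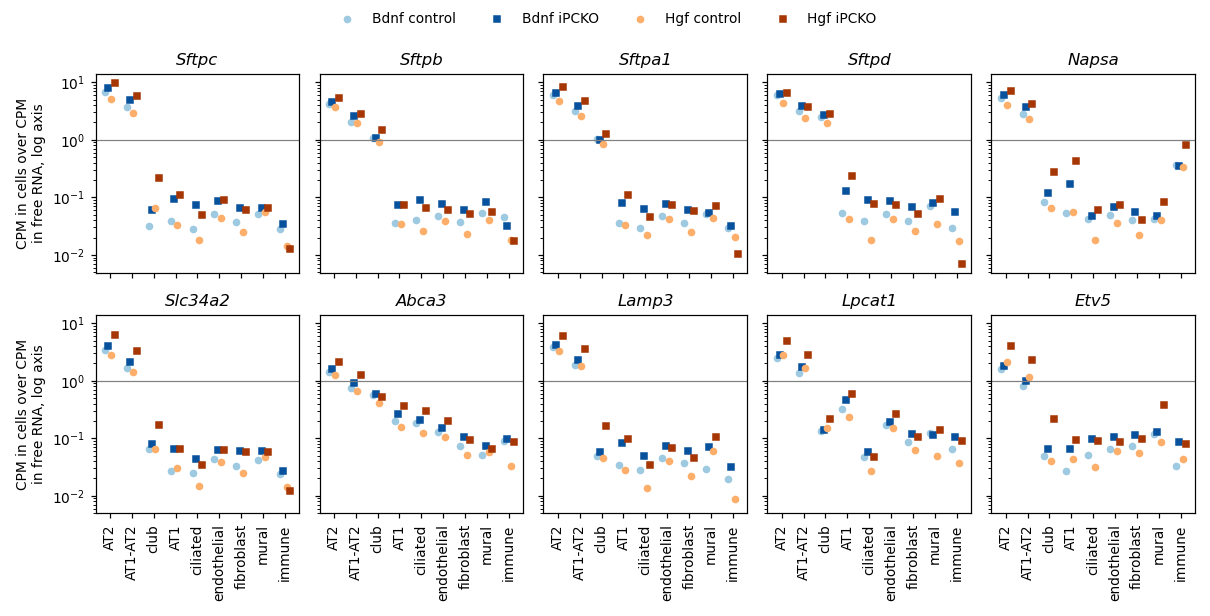
Level of each member in 9 cell classes divided by its level in free RNA (log axis), with 1 point per library and the grey line at 1. All members lie above 1 in AT2-like cells; of the other single classes, club-like cells reach or pass 1 for Sftpd, Sftpb and Sftpa1.

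Summed over AT1-like cells, most members had a higher CPM in the Bdnf iPCKO library, and 7 of the 10 in the Hgf iPCKO library, from low levels. Over all genes of AT1-like cells the median ratios were 0.07 (Bdnf) and -0.03 (Hgf). The share of all genes that were higher there was not counted. In the Bdnf pair Sftpc went from 375 to 813 CPM (1.12, 1.06 to 1.17) and the median over members was 0.93, with Abca3 (0.04, -0.08 to 0.16) and Lpcat1 (0.01, -0.09 to 0.11) as the exceptions. These 2 members had the highest levels over free RNA in AT1-like cells of the Bdnf libraries. In the Hgf pair the median was 0.45, with Sftpd from 36.9 to 151 CPM (2.03, 1.73 to 2.34) and Napsa from 17.9 to 70.0 CPM (1.97, 1.54 to 2.42), while Abca3, Lamp3 and Etv5 had ratios of -0.15, -0.22 and -0.15, Sftpc 0.58 (0.48 to 0.69) and Slc34a2 0.08 (-0.21 to 0.37). The share of AT1-like cells with an Sftpc UMI was lower in the Hgf iPCKO than in the Hgf control library (40.2 against 62.6%, and 34.3 against 43.6% after thinning, with 481 and 645 cells deep enough), although the mean per thinned cell was higher (1.39 against 0.864 UMIs). Sftpa1 showed the same, with thinned shares of 14.1 against 24.96% and means of 0.547 against 0.316 UMIs, so the higher sums of these genes came from fewer cells with more UMIs. Sftpd differed, with thinned shares of 20.2 against 6.36%. In the Bdnf pair the share for Sftpc was 78.4% in both libraries before thinning. After thinning it was 73.6% in the iPCKO and 57.4% in the control library, with 964 of 2146 and 80 of 1215 cells left out as too shallow. Higher sums were also found in some other classes. The Bdnf medians over the members were 0.53 in ciliated-like, 0.36 in fibroblast-like and 0.31 in endothelial-like cells, where Sftpc had ratios of 1.26, 0.72 and 0.63. Over all genes the medians in these classes were -0.01, 0.04 and -0.01. The Hgf medians over the members in these classes were 0.20, 0.02 and -0.17, and over all genes 0.05, 0.13 and -0.06. Other Bdnf medians over the members were 0.21 in mural-like, -0.09 in club-like and -0.15 in immune cells. Free RNA of the members was lower over the same pairs, with medians of -0.28 and -1.01. Cells past both the AT1 and AT2 gates held 2.75 and 4.18% of the Bdnf and 1.91 and 1.47% of the Hgf cells, at median depths above those of AT2-like cells (14450, 8959, 7435 and 5136 UMIs). Their members were at intermediate levels, Sftpc at 35940, 43861, 37776 and 32650 CPM. The study annotates a transitional or intermediate AT1-AT2 population in its Bdnf and Hgf lung data. How far the cells gated here match that population was not tested. Among all cells past 2 gates, those past the AT1 and AT2 gates included, Scrublet marked 38.7, 21.6, 28.3 and 12.9% as doublets. The part of such doublets in these values was not tested.

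Summed over the whole library, with cells and free RNA together, the members gave 41916, 35896, 50650 and 26824 CPM. AT2-like cells held 72.6, 61.4, 77.7 and 69.4% of these UMIs and barcodes outside cells 7.79, 8.31, 8.06 and 8.44%. Of all UMIs, AT2-like cells held 28.7, 20.6, 34.6 and 18.9% and barcodes outside cells 17.3 to 21.002%. In such sums fewer AT2 cells and less RNA per cell cannot be told apart. AT2-like cells were 33.4, 26.2, 37.5 and 22.9% of cells. These shares leave out cells past the AT2 gate and a second gate. With such cells kept, 7309 of 16720, 9554 of 23836, 6363 of 14013 and 4608 of 15689 cells passed the AT2 gate. Free RNA of the Hgf pair was lower for each member, least for Sftpd (890 to 644 CPM) and most for Lamp3 (1022 to 254 CPM). In AT2-like cells alone, the members' share of UMIs went from 11.4 to 9.85%.

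Over the 8 marker-gated classes of the 4 libraries (32 points), the 10 other genes whose level followed the mean of the members best included Slc26a9, Tfcp2l1, Zdhhc3, Pla2g1b, Bex2, Ppp1r1b, Scd1, Lrp2 and Mlc1, with Pearson correlations of log2(CPM + 10) from 0.97 to 0.94 among 1803 genes. These points share libraries and are dominated by the contrast of AT2-like cells with the rest. Of the members themselves, Slc34a2 (0.97) followed the other 9 best and Napsa (0.81) least. In the Hgf pair these genes did not move as 1 group. Slc26a9, a chloride transporter, went from 240 to 113 CPM (-1.09), Lrp2, the endocytic receptor megalin, from 296 to 97.7 CPM (-1.60) and Zdhhc3, a palmitoyltransferase, from 649 to 377 CPM (-0.78). Tfcp2l1, a transcription factor, went from 201 to 379 CPM (0.92) and Ppp1r1b from 84.4 to 156 CPM (0.89). In the Bdnf pair Tfcp2l1 had 219 and 229 CPM (0.06) and Lrp2 224 and 165 CPM (-0.44).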

How the data were processed

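The authors aligned and counted the reads of each library with STARsolo (STAR 2.7.10a, GRCm39, per the labels and the study's methods) and deposited estimated counts of UMIs per gene and barcode, in which reads that match several genes are shared out by expectation maximisation, so some entries are not whole. No normalisation was applied before deposit. The annotation version is not given consistently in the sources used here. Gene positions are from the GRCm39 annotation at hand, and start-site windows are from RefSeq on GRCm38.p6.

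From these counts, cells were barcodes with at least 1500 UMIs (Bdnf) or 700 UMIs (Hgf), without those above the 99.5 percentile of UMIs or with a mitochondrial share more than 3 scaled MAD above the median. Classes were set by summed markers per 10000 UMIs (20 for AT2, with at least 3 markers detected). UMIs were summed per library and class and given as CPM. Intervals are exact Poisson for levels, conditional exact for ratios and Clopper-Pearson for shares, at 95%, and cover counting error only. A gene was compared with at least 20 UMIs in a pair, and 1.5-fold was the limit of size. Named list genes are those past that limit with an interval that leaves out 0 (at most 6 per list and pair), beside members, markers and genes whose level followed the members. The members and lists were chosen with earlier results of these data known. The ratio computation was tested on simulated data. Doublets were not removed, and Scrublet was tried as an alternative, beside other cell limits, gates, clusters, scalings, thinning and subtraction of free RNA. Total UMIs per library were 169814433, 186701379, 73446420 and 69403166. The cerebral cortex libraries of the series entered no comparison. Python 3.11.15, numpy 2.4.6, scipy 1.17.1, pandas 2.3.3 and scanpy 1.11.5 were used. A gene that the rule for genes following the members would name is not reported here.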

Additional observations from a re-analysis of the deposited data

Results flagged for a closer look

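Of the members, the gate markers, Lyz1 and Lyz2, 5 genes had ratios of iPCKO over control in AT2-like cells that went in opposite directions in the Bdnf and Hgf pairs. A gene was counted only when its intervals in both pairs left out 0. Genes of the other lists were not screened for this, and the share over all genes was not computed, so the count has no background beside it. The 5 genes were Sftpc (0.10 and -0.25, but -0.014 and -0.32 with cells past a second gate kept, no longer opposite), Sftpd (-0.08 and 0.10), Slc34a2 (-0.06 and 0.18), the gate marker Chil1 (0.10 and -0.52) and Lyz1 (0.21 and -0.99). The differences were not tested, since each rests on 1 library per genotype.

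In the series' cerebral cortex libraries (P12, Nodal lox/lox control and Nodal iPCKO, 3002 and 4677 cells), which enter no comparison here, members were also detected. Etv5 had 94.3 and 90.6 CPM, Lpcat1 55.5 and 58.3 CPM, Abca3 29.9 and 26.8 CPM, Napsa 2.6 and 3.4 CPM, and Lamp3 0.317 and 0.173 CPM, the last from 9 and 8 UMIs.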

How the results depend on the processing

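No paired analysis was possible because each genotype is 1 library, and for the same reason no library could be left out. The number of members 1.5-fold lower in the Bdnf pair was 0 under each alternative, and in the Hgf pair it was 2 except with free RNA subtracted, where it was 1. The Bdnf median of -0.13 became -0.091 with CPM computed without mitochondrial genes and members, -0.25 with cells past a second gate kept, -0.14 with median-of-ratios scaling and -0.11 with whole-number entries only. The Hgf median of -0.18 became -0.26 with cells past a second gate kept and -0.16 with free RNA subtracted. The direction turned for Napsa in the Bdnf pair (0.014, without mitochondrial genes and members) and for Sftpc in the Bdnf pair (-0.014, cells past a second gate kept). The causes were not tested. Over the alternatives the Hgf ratio ran from -1.21 to -1.06 for Lamp3 and from -0.67 to -0.56 for Abca3. Scrublet marked 1.06, 1.11, 0.323 and 0.614% of AT2-like cells as doublets, and 38.7, 21.6, 28.3 and 12.9% of cells past 2 gates. Some low levels outside AT2-like cells, as in mural-like and immune cells, are limited by few UMIs. Others rest on many, such as 10495 and 16339 Sftpc UMIs in endothelial-like cells of the Bdnf control and Bdnf iPCKO libraries. The part of free RNA in these levels was not tested.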
